A study of Mus musculus with 24 samples.

Results

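The heat shock chaperones described here are 10 genes chosen by symbol: Hspa1a, Hspa1b, Hspa8, Dnajb1, Dnajb4, Hsp90aa1, Hsph1, Hspb1, Hspd1 and Bag3. All 10 had a row among the 54232 gene rows of each library, and all 10 were among the 18978 genes with enough counts to test. RNA was sequenced from dorsal wounds of male db/db mice (genotype Lepr (db/db), strain C57BLKS/J), which lack a working leptin receptor and become obese and diabetic. A full-thickness punch wound of 6 mm was made at 16 weeks of age and dressed with an alginate bandage, which was renewed on day 3, and the wound was collected on day 10 at 17.5 weeks of age. Bandages carried conditioned medium of primary macrophages. The medium of M0 cells is called CM0 and went on 4 wounds, that of M1 cells CM1 on 4, that of M2a cells CMA on 5 and that of M2c cells CMC on 5, beside 6 wounds with a control bandage (Ctrl). The agents that polarised the macrophages are not named in the labels. The series text counts mice, so each of the 24 libraries was taken as the wound of 1 mouse, and p-values measure the spread between these samples. Every group shares genotype, strain, sex and age, so the comparisons are between bandages on diabetic wounds, and no wound of a non-diabetic mouse was analysed here.

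Chaperones bind unfolded stretches of other proteins and keep them from clumping. HSP70 proteins do this in cycles that J-domain partners start and nucleotide exchange factors end, HSP90 completes the folding of many signalling proteins, and small heat shock proteins hold damaged clients until HSP70 can act. When unfolded proteins accumulate, heat shock factor 1 (HSF1) binds repeats of the motif nGAAn in front of these genes and raises the inducible members, while others are made at all times. In skin, the small heat shock protein HSPB1 is abundant in the differentiating layers of the epidermis.

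The stretches before the start sites are shown because they were searched for the letters through which HSF1 is known to act. Hspa1a and Hspa1b are also almost the same there. RefSeq promoter windows on GRCm38.p6 were found for 8 of the 10 genes, by symbol. They were searched over the 250 bases before the start for 2 inverted units, GAANNTTC or TTCNNGAA, each of which reads the same on both strands. Such a match stood in 12.8% of 32851 promoter windows of the same length. These 8 genes had 12 windows, and a match stood in 7 of them, which belong to 6 genes. The windows of Hsph1 overlap and hold the same match, and those of Hspa1a and Hspa1b are almost the same. The 7 are therefore not separate sites, and their share cannot be set against the 12.8%. The 120 bases before the start of Hspa1a (chr17:34972157-34972276, minus strand), Hspa1b (chr17:34959239-34959358, minus strand), Hspb1 (chr5:135887799-135887918, plus strand) and Dnajb1 (chr8:83608055-83608174, plus strand) follow, with matches in capitals. They are the 4 genes whose levels varied together from wound to wound.
Hspa1a: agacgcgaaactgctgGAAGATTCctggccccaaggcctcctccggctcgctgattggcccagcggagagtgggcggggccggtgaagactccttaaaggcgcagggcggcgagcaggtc
Hspa1b: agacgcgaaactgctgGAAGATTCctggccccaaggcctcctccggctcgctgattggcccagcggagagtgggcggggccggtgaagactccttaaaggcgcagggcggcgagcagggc
Hspb1: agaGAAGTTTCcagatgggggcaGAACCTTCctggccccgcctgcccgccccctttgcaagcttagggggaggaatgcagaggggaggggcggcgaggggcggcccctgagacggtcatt
Dnajb1: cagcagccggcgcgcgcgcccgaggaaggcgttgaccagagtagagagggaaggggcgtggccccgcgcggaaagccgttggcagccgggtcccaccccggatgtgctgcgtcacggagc
Hspa1a and Hspa1b shared 247 of 250 bases before their starts, and in both the match began at position -104 relative to the start site. Hspb1 held 2 matches. The Dnajb1 window held 0, as did that of Bag3, which says only that these letters are not in those windows.

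A longer run of 3 inverted units (GAANNTTCNNGAA or TTCNNGAANNTTC, either strand) stood in 0.466% of all windows and, among these genes, in 1, Hspd1. There 4 units followed each other, an arrangement found in 0.0213% of windows. They stood in the window of the Hspd1 start site at 55087932, while that of its other start site, 55088243, held 0 matches. The run also lies before Hspe1, which begins at 55088132 on the plus strand. The stretch shown, which holds the run and a few bases on either side, lies at chr1:55088056-55088079 on the minus strand. The GENCODE M21 annotation gives these bases to an exon, and the 4 units are in capitals.
Hspd1: gccTTCCGGAAGGTTCTAGAAcgg

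The libraries held 7267879 to 11985292 counts, with a median of 9314628, and the 10 genes together took 0.106% to 0.128% of them. The smallest count of any member was 84, for Hspa1a in Ctrl 6, with an exact 95% Poisson interval of 67.0 to 104 that covers counting error only. The markers of the labelled tissue were present, with the keratin Krt14 at 1329 to 4612 CPM (counts scaled to a common library size), the collagen Col1a1 at 20612 to 40273 CPM and the macrophage lysozyme Lyz2 at 673.7 to 2069.7 CPM. Muscle actin Acta1 ranged over 314.8 to 2009 CPM. The libraries with the highest hair follicle, muscle and neutrophil scores were Ctrl 3, Ctrl 4 and CM1 3, chosen to be left out together from earlier results of these data. Ctrl 3 was far from the rest, at a mean log2 CPM of 8.49 beside 5.51 in CMA 3, the next highest, while the muscle score of Ctrl 4, 9.29, was close to the 9.11 of CM0 2.

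Compared per kilobase of exon, the constitutive HSP70 gene Hspa8 had the highest level, with a mean of 145 CPM per kb, and the small heat shock protein gene Hspb1 came next with 111 CPM per kb (24 libraries). Hspd1, the mitochondrial chaperonin, had a level of 27.8 CPM per kb, Hsp90aa1, the inducible form of HSP90, 26.5 and Hspa1b, an inducible HSP70, 22.8. The levels of Bag3 and Dnajb1 were 17.5 and 16.6 CPM per kb, and those of Hspa1a, Dnajb4 and Hsph1 were 4.94, 4.54 and 3.79 CPM per kb. The order was the same in every library at some steps only. Hspb1 exceeded Hspd1, and Dnajb1 exceeded Hspa1a, in 24 of 24 libraries. Bag3 exceeded Dnajb1 in 13 of 24 and Hspa1a exceeded Dnajb4 in 15 of 24, so these neighbours did not differ beyond their spread. Such counts cover the spread between wounds only. The exon length is that of all annotated exons together, 8765 bp for Dnajb4 and 7266 bp for Hsph1. An error in it would be the same in every library, as would one in the split of reads between Hspa1a and Hspa1b.

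The genes differed in how far they varied between wounds. Hspa1b was the most variable, with 112 CPM in CMA 3 and 33.5 CPM in Ctrl 6, a ratio of 3.36, and Hspa1a had a ratio of 3.16 between the same libraries. Hspb1 spanned 2.62-fold and Dnajb1 1.97-fold, again with the lowest value in Ctrl 6. Hspa8 spanned 1.37-fold, Dnajb4 and Bag3 1.41-fold, Hspd1 1.52-fold, Hsp90aa1 1.62-fold and Hsph1 1.81-fold. The median gene with an average log2 CPM of at least 2 spanned 1.73-fold (13541 genes), so the inducible HSP70 genes and Hspb1 lay above it and Hspa8, Dnajb4 and Bag3 below it.

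**Figure D1:**
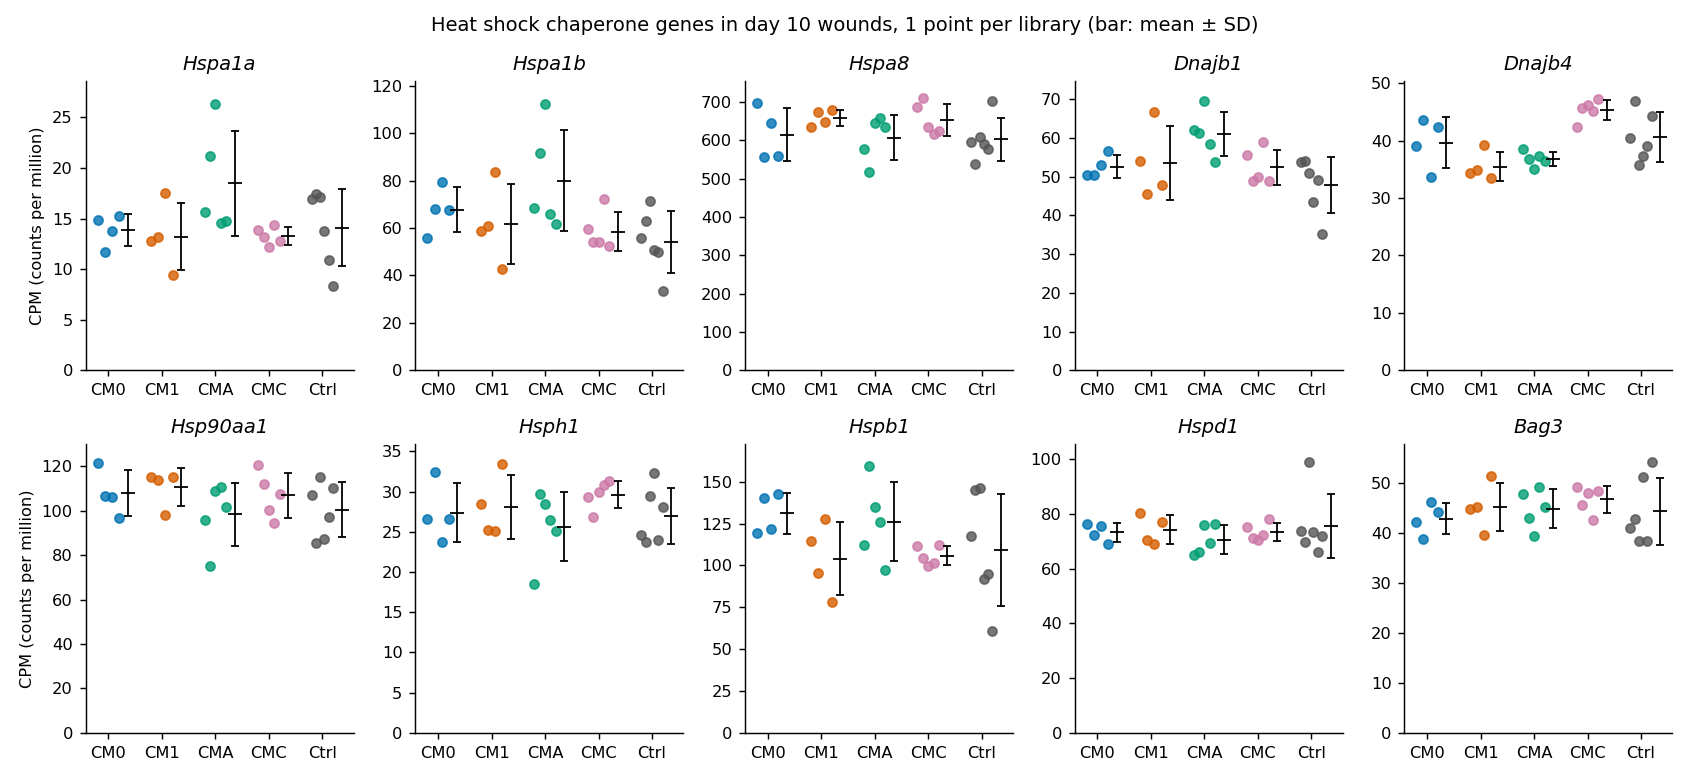
CPM of the 10 genes in each of 24 wounds (vertical axes, starting at 0) by bandage (CM0, CM1, CMA, CMC and Ctrl from left to right), with a point per library and a bar for the mean ± SD. Hspa1b reaches 112 CPM in CMA 3 and Dnajb4 lies between 42.4 and 47.2 CPM in all 5 CMC wounds.

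Hspa1a and Hspa1b encode near-identical stress-inducible HSP70 proteins and lie next to each other on chromosome 17 (34969190 to 34972156 and 34956436 to 34959238, minus strand, GRCm38), 9951 bp apart. Of all 75-base words in Hspa1b transcripts, 55.8% also occur in Hspa1a transcripts, so reads of the pair cannot always be told apart, and the sources used here do not say how reads with several matches were counted. Hspa1b had 3.29 to 5.81 counts for each count of Hspa1a. An antisense gene, Gm20481, shares 564 exon bases with Hspa1a, and the libraries do not mark strand.

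Hspa1b stood at 68.4, 91.5, 112, 65.9 and 61.9 CPM in CMA wounds, against a lowest value of 33.5, a median of 53.4 and a highest of 71.4 CPM in Ctrl wounds. The other media gave 56.01, 68.0, 79.5 and 67.5 CPM in CM0, 58.7, 61.0, 83.8 and 42.8 CPM in CM1, and 59.6, 54.1, 54.3, 72.3 and 52.4 CPM in CMC. A pair of CMA wounds, CMA 2 and CMA 3, lay above every control and the other 3 lay within the control range, so the groups overlapped. The mean was 80.01 ± 21.4 CPM in CMA (SD, n = 5) and 54.1 ± 12.9 CPM in Ctrl (SD, n = 6), and CMA over Ctrl came to 0.57 on the log2 scale (SE 0.18, 95% interval from 0.18 up to 0.95). That did not pass (edgeR unadjusted p = 0.00554, adjusted p = 0.725). Averaged over the 4 media, Hspa1b had a log2 fold change of 0.30 over Ctrl (SE 0.15, edgeR adjusted p = 0.539), and of 0.18 without Ctrl 6.

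Hspa1a, at a lower level, was above Ctrl in CMA alone of the 4 media by its estimate, where Hspa1b was above Ctrl in all 4. Its log2 fold changes over Ctrl were -0.02 in CM0, -0.09 in CM1 and -0.08 in CMC, and those of Hspa1b 0.33, 0.19 and 0.11. Hspa1a stood at 15.6, 21.2, 26.3, 14.5 and 14.7 CPM in CMA, at 13.9, 13.2, 12.2, 14.4 and 12.8 CPM in CMC, and at a lowest value of 8.34, a median of 15.4 and a highest of 17.4 CPM in Ctrl. The CMA wounds overlapped the controls but lay above all CMC wounds, a separation seen for 1% of all genes, with the lowest CMA value close to the highest CMC value. Against Ctrl, the log2 fold change in CMA was 0.39 (SE 0.18, edgeR unadjusted p = 0.0445, adjusted p = 0.733), and 0.23 without CMA 3. The mean of the 4 media gave 0.05 (SE 0.15), or 0.12 without Ctrl 2, and its sign turned without Ctrl 5 or Ctrl 6 (-0.01 and -0.07). With the counts of both genes summed, the mean of the media gave 0.25.

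Hspa8 encodes the constitutive HSP70, which clears and folds proteins in unstressed cells and uncoats clathrin vesicles. It averaged 615 ± 68.7 CPM in CM0, 659 ± 21.03 in CM1, 607 ± 58.8 in CMA, 654 ± 41.8 in CMC and 602 ± 55.1 in Ctrl. The groups overlapped throughout. The medium with the smallest p was CM1, with a log2 fold change over Ctrl of 0.13 (SE 0.08, 95% interval -0.05 to 0.30), and the mean of the media gave 0.07 (SE 0.06), or 0.04 without Ctrl 2 and 0.12 without Ctrl 6. The lowest Hspa8 count of any library was 4270.

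The J-domain genes are the partners that load clients onto HSP70. Dnajb1 (chromosome 8, 83608193 to 83612653), the main stress-inducible one, stood at 62.2, 61.3, 69.4, 58.5 and 53.8 CPM in CMA, against a lowest value of 35.2, a median of 50.1 and a highest of 54.1 CPM in Ctrl. The other media gave 50.3, 50.4, 53.0 and 56.6 CPM in CM0, 54.0, 45.5, 66.7 and 47.7 CPM in CM1, and 55.5, 48.9, 49.9, 58.9 and 48.9 CPM in CMC. In 4 of 5 CMA wounds Dnajb1 was above every control, and the fifth lay just under the highest control. The mean was 61.0 ± 5.71 CPM in CMA (SD, n = 5) and 47.8 ± 7.27 CPM in Ctrl (SD, n = 6). CMA over Ctrl came to 0.35 on the log2 scale, with an SE of 0.10 and a 95% interval of 0.14 to 0.57, and did not pass (edgeR unadjusted p = 0.00254, adjusted p = 0.725). Averaged over the media, Dnajb1 had a log2 fold change of 0.20 (SE 0.08, edgeR unadjusted p = 0.0255), and of 0.12 without Ctrl 6. Its edgeR adjusted p = 0.478 was the smallest of any member in any comparison.

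Dnajb4 (chromosome 3, 152178511 to 152210302), another member of the J-domain family, had the most separated groups. It stood at 34.3, 34.9, 39.2 and 33.5 CPM in CM1 and at 38.5, 36.8, 35.1, 37.3 and 36.4 CPM in CMA, against 42.4, 45.6, 46.2, 45.1 and 47.2 CPM in CMC. CM0 wounds had 39.1, 43.5, 33.7 and 42.3 CPM, and Ctrl wounds a lowest value of 35.7, a median of 39.8 and a highest of 46.9 CPM. All CM1 and all CMA wounds lay below all CMC wounds (groups that did not overlap were seen for 1.03% and 1% of all genes in those comparisons), while Ctrl and CM0 wounds covered most of the range. The log2 fold change was -0.35 for CM1 over CMC (SE 0.08, 95% interval -0.52 to -0.19) and -0.30 for CMA over CMC (SE 0.08, 95% interval -0.46 to -0.14). Of all 18978 genes Dnajb4 ranked 1 between CM1 and CMC and 6 between CMA and CMC by p. Neither passed when adjusted over all genes (edgeR unadjusted p = 0.000222 and 0.000641, adjusted p = 0.9996 and 0.795). Against Ctrl it was -0.20 in CM1 (SE 0.08, edgeR adjusted p = 0.695), or -0.32 without Ctrl 3, Ctrl 4 and CM1 3, and 0.16 in CMC (SE 0.07, edgeR adjusted p = 0.577). For the mean of the media it was -0.05 (SE 0.06), or -0.14 without Ctrl 3, Ctrl 4 and CM1 3, -0.09 without Ctrl 3 and -0.01 without Ctrl 2. A difference among any of the 5 groups had an unadjusted edgeR p of 0.00154 (adjusted p = 0.929), and 2 of 10 genes, Dnajb1 and Dnajb4, had such a p under 0.05, against 4.65% of all genes.

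The red cell, muscle and hair follicle lists were the marker lists most correlated with Dnajb4, at r = 0.39, 0.39 and -0.38 over the 24 wounds (permutation p = 0.0608, 0.0626 and 0.0658), and none passed when adjusted over 110 relations (adjusted permutation p = 0.234 each). By median summed level, the muscle list was highest in CMC, at 20009 CPM, beside 10945 in CM1 and 13208 in CMA. The red cell list was highest there too, at 194.7 CPM, beside 112.5 in CM1 and 106.0 in CMA. The hair follicle list, negative with Dnajb4, stood at 27.6 CPM in CMC, 53.7 in CM1 and 174.4 in CMA. The part of these lists in the Dnajb4 values was not tested. The summed level of the muscle list was 12640.5 to 31168 CPM in CM0, 8948 to 17751 in CM1, 5599 to 18043 in CMA, 6673 to 21635 in CMC and 11943 to 34860 in Ctrl, with 19 of 21 genes tested and 0 of 21 at 0 in every library.

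Hsp90aa1, the inducible HSP90, and Hsph1, an HSP110 that exchanges nucleotide on HSP70, showed no separation of the groups. Hsp90aa1 averaged 108 ± 10.2 CPM in CM0, 111 ± 8.41 in CM1, 98.4 ± 14.3 in CMA, 107 ± 10.1 in CMC and 100.5 ± 12.3 in Ctrl. Hsph1 averaged 27.4 ± 3.67 CPM in CM0, 28.1 ± 3.94 in CM1, 25.7 ± 4.34 in CMA, 29.6 ± 1.72 in CMC and 27.0 ± 3.48 in Ctrl. The log2 fold changes with the smallest p against Ctrl were 0.14 for Hsp90aa1 in CM1 (SE 0.10, edgeR adjusted p = 0.764) and 0.13 for Hsph1 in CMC (SE 0.11, edgeR adjusted p = 0.759). Without Ctrl 3, Ctrl 4 and CM1 3 the Hsph1 value was 0.24. For the mean of the media they were 0.08 (SE 0.08) for Hsp90aa1, or 0.03 without Ctrl 2 and 0.11 without Ctrl 3, and 0.03 (SE 0.09) for Hsph1, or 0.15 without Ctrl 3, Ctrl 4 and CM1 3 and just under 0 without Ctrl 2.

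Hspb1 (chromosome 5, 135887919 to 135889563), the small heat shock protein, stood at 119.5, 140.3, 121.7 and 143 CPM in CM0, against a lowest value of 60.8, a median of 106.3 and a highest of 146 CPM in Ctrl. CMC wounds had 111.6, 104, 99.9, 101.5 and 112 CPM, all below all CM0 wounds, as 1.82% of all genes did not overlap there. The controls were the most scattered group, with an SD of 33.4 CPM, and spanned all other groups but CMA 2 at 159.5 CPM. The log2 fold change of CM0 over Ctrl was 0.26 (SE 0.18, edgeR adjusted p = 0.947), and 0.13 without Ctrl 6. That of CMC over CM0 was -0.31 (SE 0.19, edgeR adjusted p = 0.998), and that of the mean of the media over Ctrl was 0.09 (SE 0.14), or 0.18 without Ctrl 2 and -0.04 without Ctrl 6.

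Hspd1 (chromosome 1, 55077835 to 55088243) encodes the mitochondrial chaperonin HSP60 and Bag3 (chromosome 7, 128523616 to 128546981) a co-chaperone that exchanges nucleotide on HSP70 and hands clients to autophagy. Hspd1 averaged 73.3 ± 3.47 CPM in CM0, 74.2 ± 5.33 in CM1, 70.6 ± 5.30 in CMA, 73.4 ± 3.16 in CMC and 75.6 ± 11.7 in Ctrl. Among the controls Ctrl 3 stood at 98.9 CPM, next to 66.2 to 73.6 CPM in the other 5, and the log2 fold change of the mean of the media was -0.05 (SE 0.06), or 0.03 without Ctrl 3. The medium with the smallest p was CMA, at -0.10 over Ctrl (SE 0.08, edgeR adjusted p = 0.837), or -0.01 without Ctrl 3. Hspd1 shares 112 exon bases with Hspe1, its co-chaperonin gene on the opposite strand. Bag3 averaged 42.9 ± 3.15 CPM in CM0, 45.3 ± 4.84 in CM1, 44.96 ± 3.93 in CMA, 46.8 ± 2.72 in CMC and 44.4 ± 6.75 in Ctrl, with a log2 fold change of 0.02 for the mean of the media (SE 0.07). That sign turned without Ctrl 1, Ctrl 3 or Ctrl 5, and without Ctrl 6 the value was 0.08. For Bag3 the smallest p was in CMC, at 0.07 over Ctrl (SE 0.09, edgeR adjusted p = 0.844), or 0.03 without Ctrl 3 and 0.14 without Ctrl 6.

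Counted over all 10 genes, the edgeR quasi-likelihood test called 0 of 10 in each of 12 comparisons at an adjusted p under 0.05, as it called 0% of the 18978 genes in each. DESeq2 and limma with sample quality weights, which are among 31 alternative settings of the fit, called 0 of the 10 as well. Over all 31 the smallest adjusted p of a member was 0.297. At an unadjusted edgeR p under 0.05, the CMA comparison with Ctrl held 3 of 10, Hspa1a, Hspa1b and Dnajb1, all higher, against 6.61% of all genes. These genes varied together over the wounds (r of 0.79 to 0.86), and Hspa1a and Hspa1b share sequence, so they are not 3 separate counts. The summed keratinocyte markers, with which these 3 genes correlate, had a median of 24098 CPM in CMA, the highest of the groups, and of 15407 CPM in Ctrl, and their part in the CMA values was not tested. CM1 against Ctrl held 1 of 10, Dnajb4, lower, against 7.04% of all genes, and CMC against Ctrl 1 of 10, Dnajb4, higher, against 8.55%. CM0 against Ctrl held 0 of 10, against 4.92%. These comparisons share the 6 control wounds. For the mean of the 4 media 1 of 10 had such a p, Dnajb1, against 9.42% of all genes. Its log2 fold changes were above 0 for 8 of 10, with a median of 0.06, against 47.1% of all genes with a median of -0.01. Those of Hspa1a, Hsph1, Hspb1 and Bag3 turned below 0 when 1 control or another was left out. Genes that vary together are not separate counts, so 8 of 10 is no test against the share of all genes. For single media they were above 0 for 6 of 10 in CM0 (47.4% of all genes), 6 of 10 in CM1 (48.7%), 6 of 10 in CMA (46.7%) and 7 of 10 in CMC (48.4%). Groups without overlap with Ctrl were seen for 0 of 10 genes in CM0 (0.801% of all genes), CM1 (1.1%), CMA (0.327%) and CMC (0.543%).

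**Figure D2:**
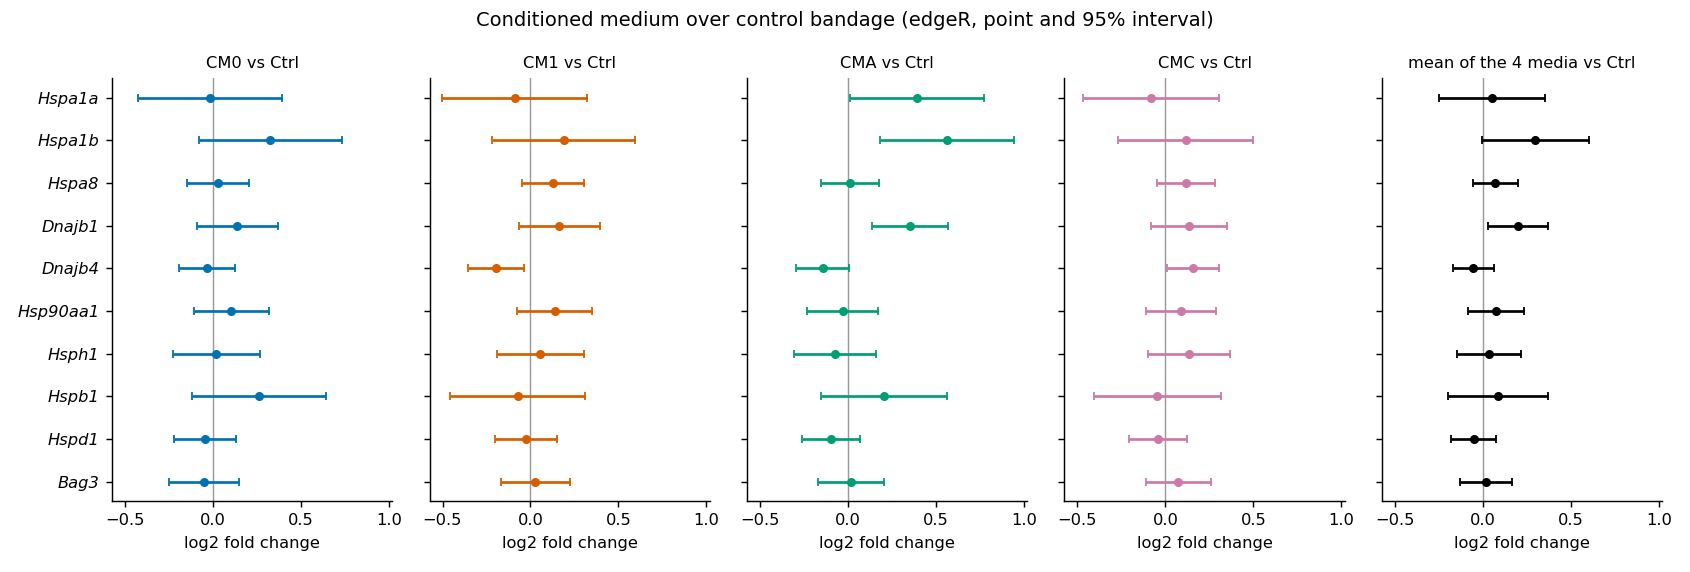
Log2 fold changes of the 10 genes (rows) for CM0, CM1, CMA and CMC over Ctrl and the average of the 4 media over Ctrl (panels from left to right), as edgeR estimates with 95% intervals and a line at 0. In CMA the intervals of Hspa1a, Hspa1b and Dnajb1 lie above 0, with estimates of 0.39, 0.57 and 0.35, and 0 of 10 genes passed in any panel when adjusted over all genes.

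Between media, an unadjusted edgeR p under 0.05 was reached by 3 of 10 in CMA against CMC (Hspa1a and Hspa1b higher, Dnajb4 lower; 6.16% of all genes) and by 1 of 10 each in CM1 against CMC (Dnajb4; 2.71%), CM1 against CMA (Hspa1a; 4%) and CMC against CM0 (Dnajb4; 3.72%). In CMA against CMC, Hspa1a and Hspa1b vary together and are not separate counts. CM1 and CMA against CM0 held 0 of 10, with 2.22% and 3.14% of all genes. Hspa1a had a log2 fold change of -0.48 for CM1 over CMA (SE 0.21, edgeR adjusted p = 0.995), or -0.32 without CMA 3, and of 0.41 for CMA over CM0 (SE 0.21, edgeR unadjusted p = 0.0578), or 0.25 without CMA 3. Dnajb4 had one of -0.16 for CM1 over CM0 (SE 0.08) and of 0.19 for CMC over CM0 (SE 0.08), or 0.13 without CM0 3. Groups that did not overlap were seen for Dnajb4 in CM1 against CMC (1.03% of all genes), for Hspa1a and Dnajb4 in CMA against CMC (1% of all genes) and for Hspb1 in CMC against CM0 (1.82% of all genes). They were seen for 0 of 10 in CM1 against CM0 (1.96%), CMA against CM0 (0.912%) and CM1 against CMA (1.06%).

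Several of the 10 genes varied together from wound to wound. Of the 45 pairs, 13 had an adjusted p under 0.05 (Pearson r of log2 CPM over 24 wounds, two-sided permutation test with 100000 resamples, Benjamini-Hochberg over 45 pairs), 8 with a positive and 5 with a negative r. By Spearman's rho, 9 of the 13 passed. After centring on the mean of each bandage group all 13 passed. The permutations took no account of the group means removed, so p-values after centring are somewhat too small.

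Hspa1a, Hspa1b, Dnajb1 and Hspb1 formed a set, all 6 of whose pairs passed. Hspa1a and Hspa1b had r = 0.86 (permutation p = 2e-05, adjusted p = 0.000225) and rho = 0.73 (adjusted permutation p = 0.000562), and r = 0.72 without CMA 3 and Ctrl 6, the libraries farthest from the median. The part of shared reads in that relation was not tested. Dnajb1, a J-domain gene and no HSP70, had r = 0.86 with Hspa1b (permutation p = 1e-05, the smallest that the resamples can give, adjusted p = 0.00015) and rho = 0.81 (adjusted permutation p = 0.000562), and r = 0.73 without the same libraries. Hspb1 had r = 0.79 with Hspa1b (permutation p = 1e-05, adjusted p = 0.00015; rho = 0.73, adjusted permutation p = 0.00117), and r = 0.72 without them. The other pairs of the set were Hspa1a with Dnajb1 (r = 0.79), Hspa1a with Hspb1 (r = 0.76) and Dnajb1 with Hspb1 (r = 0.70, or 0.54 without Ctrl 6).

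**Figure D3:**
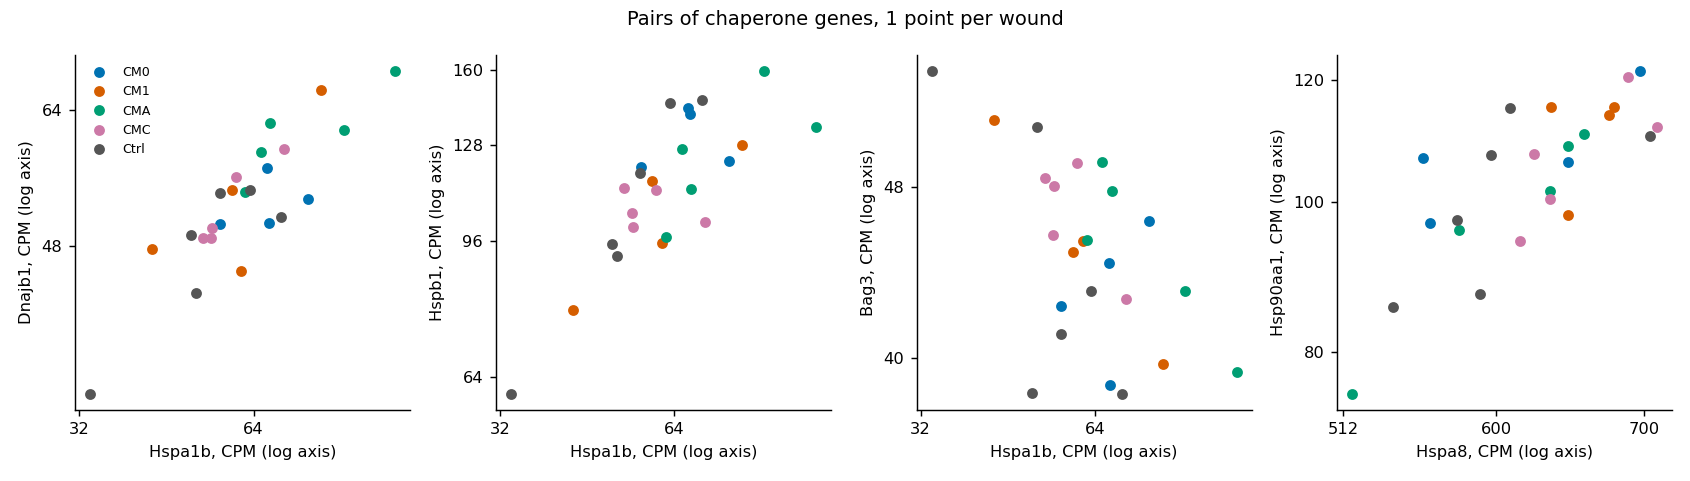
CPM of pairs of genes on log axes, with 1 point per wound coloured by bandage: Dnajb1, Hspb1 and Bag3 against Hspa1b, and Hsp90aa1 against Hspa8. Dnajb1 and Hspb1 climb with Hspa1b (r = 0.86 and 0.79), Bag3 declines (r = -0.59) and Hsp90aa1 climbs with Hspa8 (r = 0.78), with Ctrl 6 at the low end of Hspa1b in the first 3 panels.

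Hsp90aa1 covaried with Hspa8 and less firmly with Hspd1. Hspa8 and Hsp90aa1 had r = 0.78 (permutation p = 1e-05, adjusted p = 0.00015; rho = 0.76, adjusted permutation p = 0.000562), and r = 0.64 without CMA 2 and Ctrl 2. Hsp90aa1 and Hspd1 had r = 0.52 (permutation p = 0.0128, adjusted p = 0.0479; rho = 0.62, adjusted permutation p = 0.00849), and r = 0.47 without the same 2 libraries. This pair passed in 6 of 24 cases with 1 library left out, and Hspa8 with Hspd1 in 0 of 24. Hspa8 and Hspb1 ran opposite, with r = -0.55 (permutation p = 0.00446, adjusted p = 0.0201; rho = -0.42, adjusted permutation p = 0.156), and r = -0.41 without them. Dnajb4 and Hsph1 had no pair that passed over the 24 wounds as they stand. After centring on groups Dnajb4 and Hspd1 passed, at r = -0.55 (adjusted permutation p = 0.018, somewhat too small for the reason given above).

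Bag3, which belongs to the HSF1-induced genes in cultured cells, ran opposite to that set of 4. Its r was -0.53 with Hspa1a, -0.59 with Hspa1b, -0.49 with Dnajb1 and -0.63 with Hspb1 (adjusted permutation p = 0.0277, 0.0111, 0.0498 and 0.00506), and by rho only the pair with Hspb1 passed (rho = -0.56, adjusted permutation p = 0.0255). With the marker lists, Bag3 had r = 0.56 for fibroblast, 0.50 for macrophage and -0.36 for keratinocyte markers. None passed over 110 relations (adjusted permutation p = 0.0532, 0.102 and 0.26). The part of these cell types in the negative relations of Bag3 was not tested. Ctrl 6 had the highest Bag3 level, 54.4 CPM, and the lowest levels of Hspa1a, Hspa1b, Dnajb1 and Hspb1. Without Ctrl 6, 6 of the 45 pairs passed. They were Hspa1a with Hspa1b, Dnajb1 and Hspb1, Hspa1b with Dnajb1 and Hspb1, and Hspa8 with Hsp90aa1, and the same 6 passed whichever single library was left out. The 4 negative relations of Bag3, that of Hspa8 with Hspb1, and those of Dnajb1 with Hspb1 and Hsp90aa1 with Hspd1 did not pass without that 1 control wound. Other single wounds mattered too, since Dnajb1 with Bag3 passed in 7 of 24 cases and Hspa1a with Bag3 in 21 of 24. Without Ctrl 3, Ctrl 4 and CM1 3 together 10 pairs passed, and Bag3 did not pass with Hspa1a (r = -0.50), Hspa1b (r = -0.53) or Dnajb1 (r = -0.44), at adjusted permutation p = 0.0645, 0.0519 and 0.134.

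**Figure D4:**
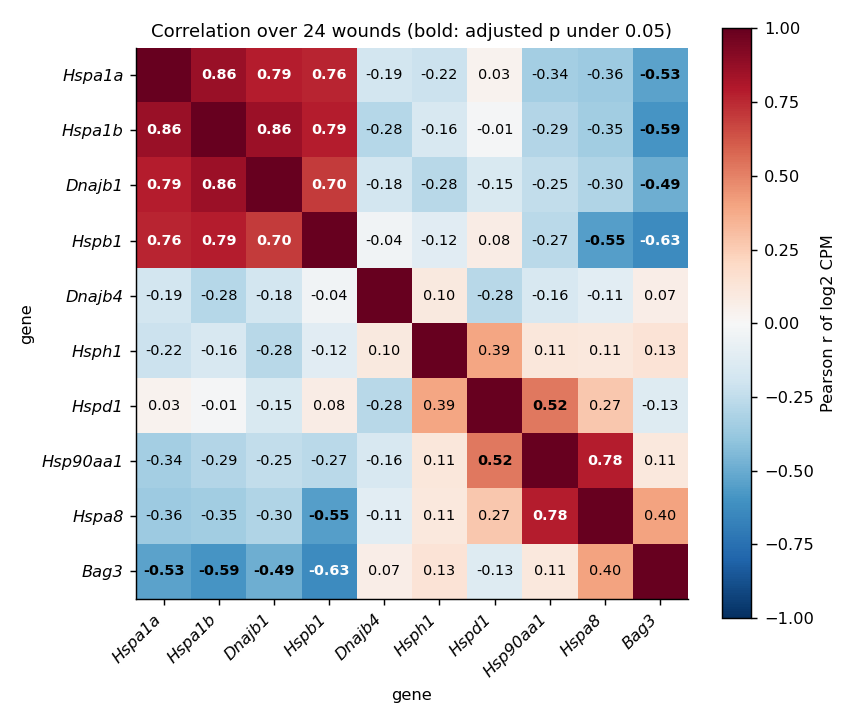
Pearson r of log2 CPM over 24 wounds for every pair of the 10 genes (rows and columns), red for positive and blue for negative, in bold where the adjusted permutation p is under 0.05. Hspa1a, Hspa1b, Dnajb1 and Hspb1 form a block with r of 0.70 to 0.86, and Bag3 is negative with all 4 of them.

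The keratinocyte markers moved with Hspa1a, Hspa1b, Dnajb1 and Hspb1. All 18 of 18 keratinocyte markers were detected, 0 of them at 0 in every library, and their summed level was 17121 to 28997 CPM in CM0, 14653 to 26638 in CM1, 14895 to 33275 in CMA, 10294 to 23424 in CMC and 9859.8 to 27222 in Ctrl. Their mean log2 CPM had r = 0.81 with Dnajb1 (permutation p = 1e-05, adjusted p = 0.0011 over 110 relations; rho = 0.75, adjusted permutation p = 0.0099), and r = 0.71 without Ctrl 4 and Ctrl 6. With Hspa1b it had r = 0.68 (permutation p = 0.00022, adjusted p = 0.00605; rho = 0.57, adjusted permutation p = 0.0814), and r = 0.56 without them. Hspb1 and Hspa1a had r = 0.61 and 0.60 (adjusted permutation p = 0.0288 each), and r = 0.42 and 0.53 without Ctrl 4 and Ctrl 6. By rho neither passed (rho = 0.55 and 0.57, adjusted permutation p = 0.0814 each). In bulk tissue more cells of a type and more RNA per cell cannot be told apart.

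The macrophage markers, all 15 of 15 detected and 0 at 0 in every library, moved with Hspa8 and opposite to Hspb1 and Hspa1a. Their summed level was 2749 to 3883 CPM in CM0, 3119.8 to 4362 in CM1, 2221 to 3791 in CMA, 3346 to 5188 in CMC and 2638 to 4589 in Ctrl. They had r = 0.75 with Hspa8 (permutation p = 2e-05, adjusted p = 0.0011; rho = 0.70, adjusted permutation p = 0.0137), and r = 0.64 without CMA 2 and Ctrl 6. With Hspb1 they had r = -0.69 (permutation p = 0.00017, adjusted p = 0.00605; rho = -0.65, adjusted permutation p = 0.0297), and r = -0.53 without them. With Hspa1a r was -0.58 (adjusted permutation p = 0.0396; rho = -0.56, adjusted permutation p = 0.0814), and -0.37 without them. Hspa1b and Dnajb1 (r = -0.55 each, adjusted permutation p = 0.0553), Hsp90aa1 (r = 0.48, adjusted permutation p = 0.116) and Hspd1 (r = -0.05) did not pass. The part of these cell types in the chaperone values was not tested. A linear fit on the marker scores was chosen after seeing the data. It cannot tell cell numbers from RNA per cell, so no cause is read from the pairs below. With the keratinocyte score fitted and removed, 8 of 45 pairs passed, and with the macrophage score removed as well 6 passed, among them Hspa1a with Hspa1b and Dnajb1, Hspa1b with Dnajb1 (r = 0.68, adjusted permutation p = 0.00304) and Hspa8 with Hsp90aa1 (r = 0.70, adjusted permutation p = 0.00225).

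**Figure D5:**
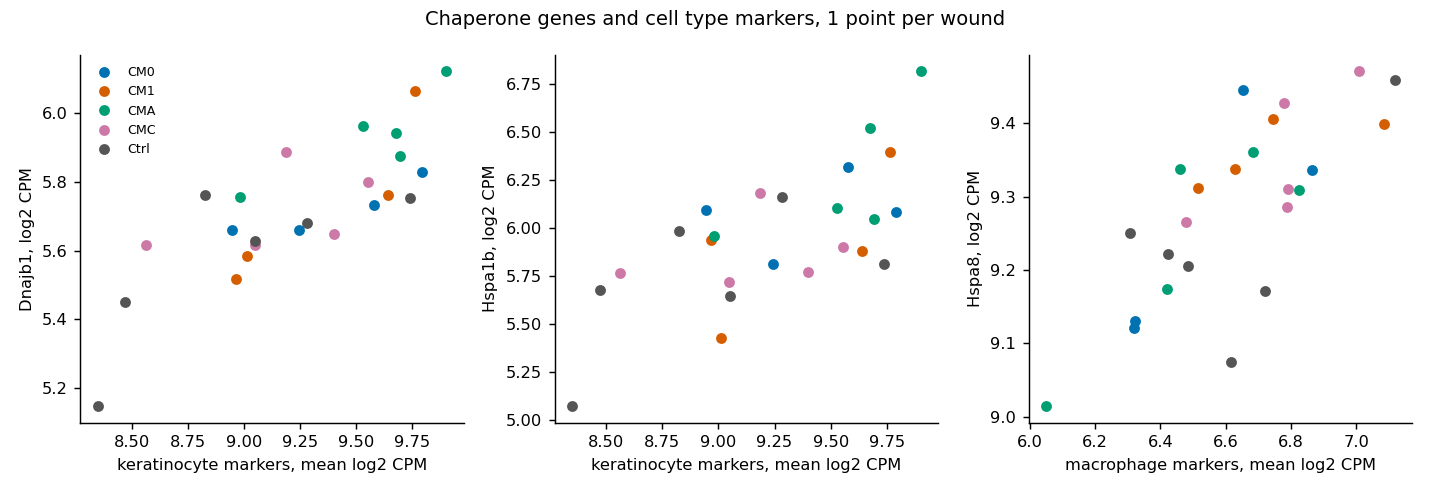
Log2 CPM of a chaperone gene (vertical axis) against the mean log2 CPM of a marker list (horizontal axis) over 24 wounds coloured by bandage: Dnajb1 and Hspa1b against keratinocyte markers, and Hspa8 against macrophage markers. All 3 climb, with r of 0.81, 0.68 and 0.75.

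Hspd1 correlated with the hair follicle list, at r = 0.65 (permutation p = 0.00183, adjusted p = 0.0288; rho = 0.53, adjusted permutation p = 0.091), but at r = 0.31 without CMA 3 and Ctrl 3, so that relation rests on those wounds. The hair follicle list summed to 9498 CPM in its highest control and to 4.80 CPM in its lowest. The list of immediate early genes, which respond to handling of tissue within minutes, had r of -0.25 to 0.31 with the 10 genes and passed with 0 of them (smallest adjusted permutation p = 0.351). The total count of a library passed with 0 of 10 as well. Its largest r were 0.51 with Hsp90aa1 and 0.47 with Hspa8 (permutation p = 0.011 and 0.0194, adjusted p = 0.0888 and 0.117). The part of the total count in the relation of Hspa8 with Hsp90aa1 was not tested.

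Among 13541 genes with an average log2 CPM of at least 2, genes among those most like Hspa1a over the 24 wounds were Cdh1 (r = 0.87), an adhesion protein of epithelial cells, and Ripk4, Mvk and Mapkapk3 (r = 0.85 each). Of the same genes, 2.44% reached r = 0.7 with Hspa1a, 3.76% with Hspa1b and 3.19% with Dnajb1. Those most like Hspa8 were Ranbp2 (r = 0.90), a nuclear pore protein, Manea (r = 0.89), Tmem8 (r = 0.88), Cltc (r = 0.88), the clathrin heavy chain, and Rap1b (r = 0.86). For Hsph1 they were Slc25a47 (r = 0.68), Ranbp3 (r = 0.64), Rnf34 (r = 0.63), Pomgnt1 (r = 0.62) and Ncald (r = 0.62), and 0% of genes reached 0.7. The genes were ranked by this measure, so it carries no test.

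Beyond the 10 genes, 85 other chaperones and stress genes from 9 lists were compared with them, 850 relations in all. Hsp90aa1 passed with 23 of 85, 19 of them positive, among them its co-chaperone Ptges3 (r = 0.77, rho = 0.79, permutation adjusted p = 0.00425) and subunits of the cytosolic chaperonin such as Cct5 (r = 0.70, rho = 0.81, permutation adjusted p = 0.00971). Hspa8 passed with 16 positive and 2 negative, led by the endoplasmic reticulum chaperones Canx (r = 0.81, rho = 0.76) and Hspa5 (r = 0.79, rho = 0.74; permutation adjusted p = 0.00425 each). Hspd1 passed with 12, all positive, led by Cct5 (r = 0.75, or 0.64 without its 2 farthest wounds, permutation adjusted p = 0.00595). Hspa1b passed with 6 positive, led by Bag1 (r = 0.72, rho = 0.66, permutation adjusted p = 0.00595), and 1 negative, and Hsph1 with 0 of 85. Bag3 passed with 3, all negative. Hspb1 passed with 6 positive and 6 negative, Hspa1a with 5 and 3, Dnajb1 with 3 positive and Dnajb4 with 1 positive. The share of all genes passing the same rule is not known here, so the counts carry no reading particular to chaperones. Among 13540 genes, r of at least 0.7 was reached by 0.325% with Hsp90aa1, 1.54% with Hspa8, 0.384% with Hspd1 and 3.76% with Hspa1b.

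The bandage comparisons of those lists gave 0 called genes in any of them, by edgeR's adjusted p over all genes for any difference and for the average of all media. The endoplasmic reticulum list had 16 of 18 genes higher in the mean of the media over Ctrl, with a median log2 fold change of 0.10, and 6 at an unadjusted edgeR p under 0.05, all higher, against 47.1% of all genes higher and 9.42% with such a p in either direction. The fibroblast markers stood the same way, with 11 of 12 higher and a median of 0.20, and their part in it was not tested. Its smallest p for any difference was that of Manf, a secreted survival factor of stressed endoplasmic reticulum, at 34.6 ± 3.35 CPM in CM0, 39.2 ± 5.79 in CM1, 33.0 ± 4.84 in CMA, 31.9 ± 2.69 in CMC and 29.6 ± 3.88 in Ctrl (edgeR adjusted p = 0.929). Of the heat shock factor list 1 of 5 tested genes was higher, Hsbp1, a small binding partner of HSF1, with a log2 fold change of 0.16 (SE 0.05, edgeR adjusted p = 0.412).

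Most of the remaining lists had medians near that of all genes. Higher in the mean of the media were 4 of 9 other HSP70 genes, 7 of 11 J-domain genes, 7 of 12 HSP90 co-chaperones, 8 of 11 exchange and quality control genes, 3 of 8 mitochondrial chaperones and 3 of 8 chaperonin subunits, with medians between -0.01 and 0.05. The gene with the smallest p for any difference was Hspa13 in the first list, Dnajc3 in the second, Fkbp5 in the third, Bag1 in the fourth, Clpx in the fifth and Cct8 in the last. Fkbp5, an HSP90 co-chaperone that glucocorticoids induce, stood at 71.7 ± 12.6 CPM in CM0, 79.2 ± 4.66 in CM1, 71.6 ± 13.7 in CMA, 97.5 ± 12.3 in CMC and 70.6 ± 15.5 in Ctrl (edgeR adjusted p = 0.929). The other small heat shock proteins, which are mostly muscle genes, were higher in 0 of 6, with a median of -0.29, beside a median of -0.51 for the muscle marker list with 1 of 19 higher, whose part in it was not tested. Hspb3 had the smallest p of that list, at 2.52 ± 1.45 CPM in CM0, 1.13 ± 0.358 in CM1, 1.71 ± 0.752 in CMA, 2.03 ± 0.525 in CMC and 2.24 ± 0.867 in Ctrl (edgeR adjusted p = 0.929).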

How the data were processed

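The deposited files hold raw counts per gene, made by the authors from 24 libraries of ribosome-depleted total RNA. Per the submitters' processing notes, bcl2fastq 2.17, FastQC, cutadapt, STAR, featureCounts and DESeq2 were used with GRCm38; no source used here gives the annotation release or the counting options. The kit named in the labels does not mark strand.

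Symbols and exon lengths came from GENCODE M21. Counts were scaled by TMM and filtered with filterByExpr, and 1 edgeR quasi-likelihood model (edgeR 4.0.16, R 4.3.3) with 1 term per group was fitted to all 24 libraries and 18978 genes, with Benjamini-Hochberg adjustment over all of them. Alternatives used DESeq2 1.42.0, limma 3.58.1, other scaling, no filter, summed paralogs and libraries left out. The scripts were tested on simulated data. Correlations used log2 CPM with a prior count of 2 and 100000 permutations. Replicate numbers are in accession order.

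The members and gene lists were chosen with earlier results of these data known. Fold changes are given for every member for the mean of the media and for the medium with the smallest p against Ctrl, and between media for the member with the smallest p. In each other list the gene with the smallest p for any difference is named, and genes most alike are given for Hspa1a, Hspa8 and Hsph1, of which 1 is not reported here. Genes named from the 850 relations, and Hspa1a, Hspa1b and Hspb1 between some media, were chosen after their values were seen.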

Additional observations from a re-analysis of the deposited data

Results flagged for a closer look

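In 50 combinations of a member and a bandage group, each of 4 to 6 wounds, Dixon's test found 2 wounds far from the rest of their group, where chance gives about 1 in 20. Hsp90aa1 was low in CM1 3, at 98.0 CPM, next to 113.9 to 115.3 CPM in the other CM1 wounds. Hspd1 was high in Ctrl 3, at 98.9 CPM, next to 66.2 to 73.6 CPM in the other controls. CM1 3 also had the highest neutrophil marker score and Ctrl 3 the highest hair follicle level, and their part in these values was not tested.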

How the results depend on the processing

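No alternative called a member in any comparison, and 785 of 796 alternative values of the named fold changes kept their direction. The 11 that turned belong to the mean of the media over Ctrl, except 1. Hspa1a gave -0.0117 without Ctrl 5 and -0.0731 without Ctrl 6, Hsph1 -0.0007 without Ctrl 2, Hspb1 -0.0436 without Ctrl 6, and Bag3 -0.0057, -0.025 and -0.0205 without Ctrl 1, Ctrl 3 and Ctrl 5. Hspd1 gave 0.0007 in limma, 0.0348 without Ctrl 3 and 0.0583 without Ctrl 3, Ctrl 4 and CM1 3, and its CMA fold change over Ctrl was 0.0047 without those 3. With single libraries left out, the highest values were 0.1209 for Hspa1a, 0.0887 for Hsph1, 0.183 for Hspb1 and 0.0792 for Bag3, and the lowest for Hspd1 was -0.0883. The cause was not tested. The count of covarying pairs, 13, was 7 with Hspa1a and Hspa1b summed, which leaves fewer pairs, and 6 to 13 with single libraries left out, with 6 without Ctrl 6. It was 8 after removing a linear fit on the keratinocyte score and 6 after removing the macrophage score too, alternatives chosen after seeing the data. Spearman's rho gave 9, centring on groups 14 and leaving out Ctrl 3, Ctrl 4 and CM1 3 together 10. No paired analysis was possible because the replicate numbers follow accession order and the labels pair no wounds. With 4 to 6 wounds a group, the 95% interval of Hspa1b in CMA over Ctrl ran from 0.18 to 0.95, so differences of such a width are not resolved for the variable members.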
